A study of Ovis aries with 20 samples.

Results

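The epithelial sodium channel ENaC and its regulators were taken as 6 named genes of the count tables, which hold 24478 genes. They are SCNN1A, SCNN1B and SCNN1G, which encode the alpha, beta and gamma subunits, the membrane-bound serine proteases PRSS8 (prostasin) and ST14 (matriptase), and the ubiquitin ligase gene NEDD4L. All 6 were found by symbol, and all 6 passed the filter on low counts that left 20097 genes for testing. Total RNA of frozen sheep trachea, which the labels call epithelial tissue, was sequenced at days 65, 80, 100, 120 and 147, of which day 147 is birth. At each age 2 samples came from donors labelled CF, for cystic fibrosis, and 2 from healthy donors labelled WT, so that 10 groups held 20 samples. The allele carried by the CF sheep and any treatment were not given in the sources used here. The title of the series places it in the early development of a CF sheep model, and the genes were followed over the ages and between CF and WT.

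ENaC is assembled from an alpha, a beta and a gamma subunit and lets sodium enter an epithelial cell through its apical membrane, from where the sodium pump moves it out at the other side. In the airway and lung, the sodium it takes up draws water with it, and before birth the channel becomes part of the switch from secreting fluid into the lung to absorbing it. Serine proteases such as prostasin and matriptase raise the activity of the channel by cleaving it or acting on each other, and NEDD4L tags the subunits with ubiquitin, which removes them from the membrane. CF is caused by loss of CFTR, an anion channel of the same membrane.

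Libraries held 42372433 (WT day 65 replicate 2) to 87651829 counts (WT day 100 replicate 2). Both WT day 100 samples carry the same sample identifier, as do both CF day 147 samples, and WT day 65 replicate 2 shares one with CF day 100 replicate 2. Nothing in the labels says that replicates are separate animals. What the p-values measure is therefore only how these samples spread, which may be technical. All 17 epithelial markers looked at were found in every library, with a summed level of 945 to 3700 CPM (depth-scaled counts) in CF and 1853 to 5768 CPM in WT. The summed fibroblast markers were above the epithelial ones in 19 of 20 libraries, so the tissue is not epithelium alone. In such bulk tissue, fewer cells of a type and less RNA per cell cannot be told apart.

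Genes of other tissues marked 4 libraries. WT day 80 replicate 2 held the thyroid gene TG at 106018 CPM, against 0.210 to 4.17 CPM in the other 19 libraries. That library also held thymus and lymphocyte markers at 220 CPM in sum. CF day 80 replicate 1 held skeletal muscle markers at 24257 CPM in sum and the lowest epithelial sum of all, 945 CPM. CF day 65 replicate 2 held liver markers at 14643 CPM in sum, and WT day 65 replicate 2 held thymus markers at 307 CPM and muscle markers at 665 CPM. Some results that rest on these libraries are also given without them.

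Per kilobase of summed exon length, the scale on which genes can be compared, PRSS8 and ST14 stood above the 3 subunit genes. SCNN1A averaged 3.94 CPM per kb in CF and 4.20 in WT. SCNN1G averaged 1.30 CPM per kb in CF and 4.78 in WT, and SCNN1B 1.42 in CF and 12.0 in WT. The WT means without WT day 80 replicate 2 were 2.77 CPM per kb for SCNN1G and 5.70 for SCNN1B. ST14 averaged 24.9 CPM per kb in CF and 24.3 in WT, and NEDD4L 9.15 in CF and 9.03 in WT. PRSS8 stood highest, at 42.9 CPM per kb in CF and 55.3 in WT. SCNN1D, which encodes a delta subunit that can stand in for alpha, was at 0 to 39 counts per library, and a count of 0 in WT day 80 replicate 1 allows up to 0.0546 CPM, for counting error only.

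**Figure D1:**
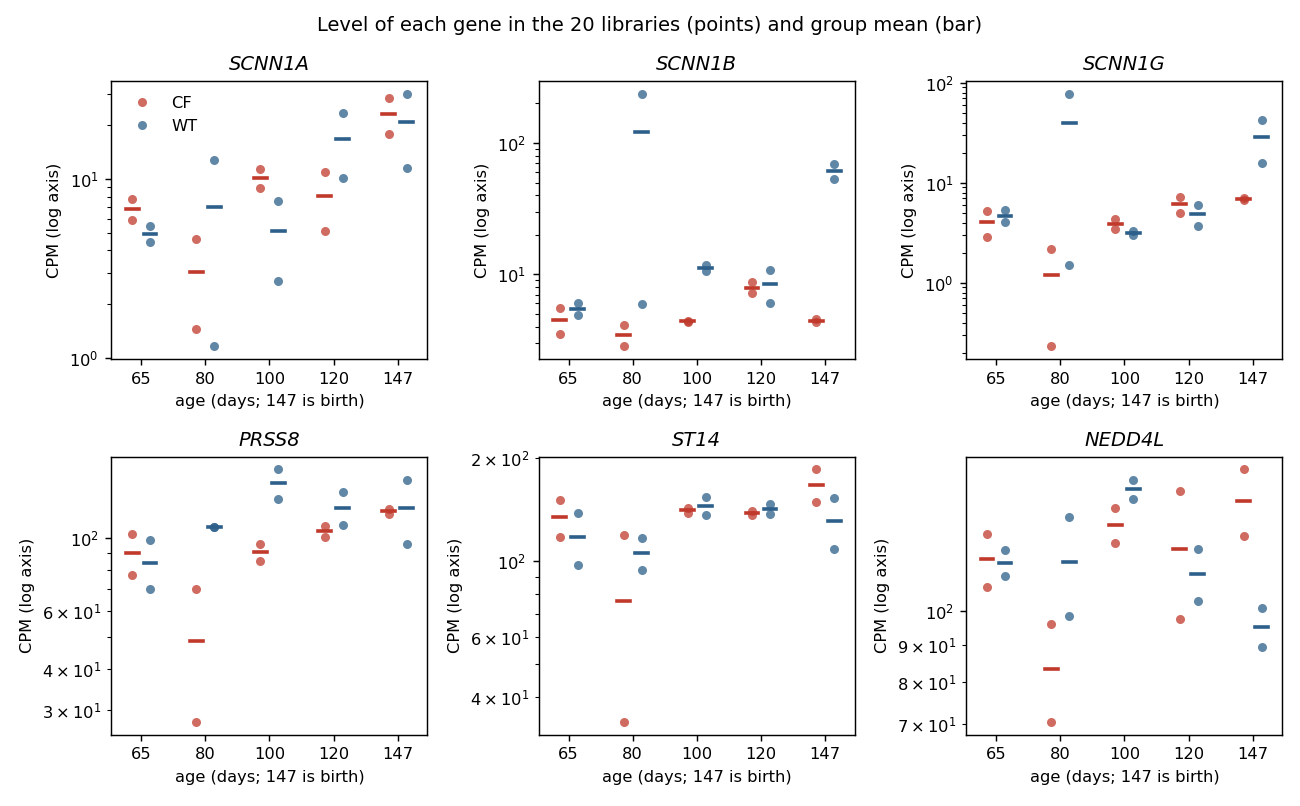
Level in CPM (log axis) of the 6 genes against age in days, with a point for each of the 20 libraries, CF left of WT at each age, and a bar at the group mean. SCNN1B stands at 4.57 and 4.30 CPM in CF at birth and at 53.4 and 68.7 CPM in WT, while ST14 overlaps between CF and WT at every age.

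SCNN1B, the beta subunit, was the one member whose difference between CF and WT passed the test, as an average over the ages. Its level in CF stayed within 2.82 to 8.71 CPM over all ages, whereas WT libraries reached 237 CPM. At day 65 it was 5.51 and 3.48 CPM in CF, against 4.92 and 6.03 CPM in WT. At day 80 it was 2.82 and 4.11 CPM in CF, against 5.90 and 237 CPM in WT. The ranges overlapped at day 65 and did not at day 80, where the WT library at 237 CPM is the one that held thyroid RNA.

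At day 100 SCNN1B was 4.37 and 4.37 CPM in CF, against 10.6 and 11.7 CPM in WT, and at day 120 it was 7.14 and 8.71 CPM in CF, against 6.08 and 10.7 CPM in WT. At birth it was 4.57 and 4.30 CPM in CF, against 53.4 and 68.7 CPM in WT. Both CF libraries thus lay below both WT libraries at days 80, 100 and 147, as did 10.8%, 30.0% and 15.6% of all genes tested at these ages. At days 65 and 120 the genotypes overlapped, and the CF mean was the lower at 5 of 5 ages. From high to low, the group means ran WT day 80, WT day 147, WT day 100, WT day 120, CF day 120, WT day 65, CF day 65, CF day 147, CF day 100 and CF day 80. Of the 9 pairs of neighbours in that order, only WT day 147 over WT day 100, CF day 120 over WT day 65 and CF day 100 over CF day 80 did not overlap.

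SCNN1B averaged 4.94 ± 1.76 CPM in CF and 41.5 ± 72.4 CPM in WT (SD, n = 10 each). WT day 80 replicate 2 sets much of that WT mean, which is 19.8 ± 23.8 CPM over the other 9 libraries. Averaged over the ages SCNN1B was lower in CF by a log2 fold change of -2.13 ± 0.43 (SE) and passed the threshold (adjusted p = 0.0440 by edgeR's quasi-likelihood F test, Benjamini-Hochberg values over all 20097 genes). It was the member called of 6, while 0.766% of all genes were called, with 0.309% of all genes lower in CF. At an unadjusted p under 0.05 there were 3 members, SCNN1B, SCNN1G and PRSS8, beside 11.2% of all genes. Without WT day 80 replicate 2 the log2 fold change was -1.25 (adjusted p = 0.00452 in edgeR), with the remaining WT day 80 sample assumed to vary like the other groups and 1.33% of all genes called.

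The SCNN1B call averaged over the ages was lost in 17 of 20 fits that left out a library. It was kept without WT day 80 replicate 1, WT day 80 replicate 2 or WT day 147 replicate 1, while the log2 fold change stayed between -2.33 and -1.25. It was also lost with the samples that share an identifier within a group summed (adjusted p = 0.247, edgeR) and with the replicate number as a block (adjusted p = 0.0694). Without days 80 and 147 together it was -0.61 and did not pass (adjusted p = 0.265, edgeR), and it was negative in all 33 alternatives tried.

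**Figure D2:**
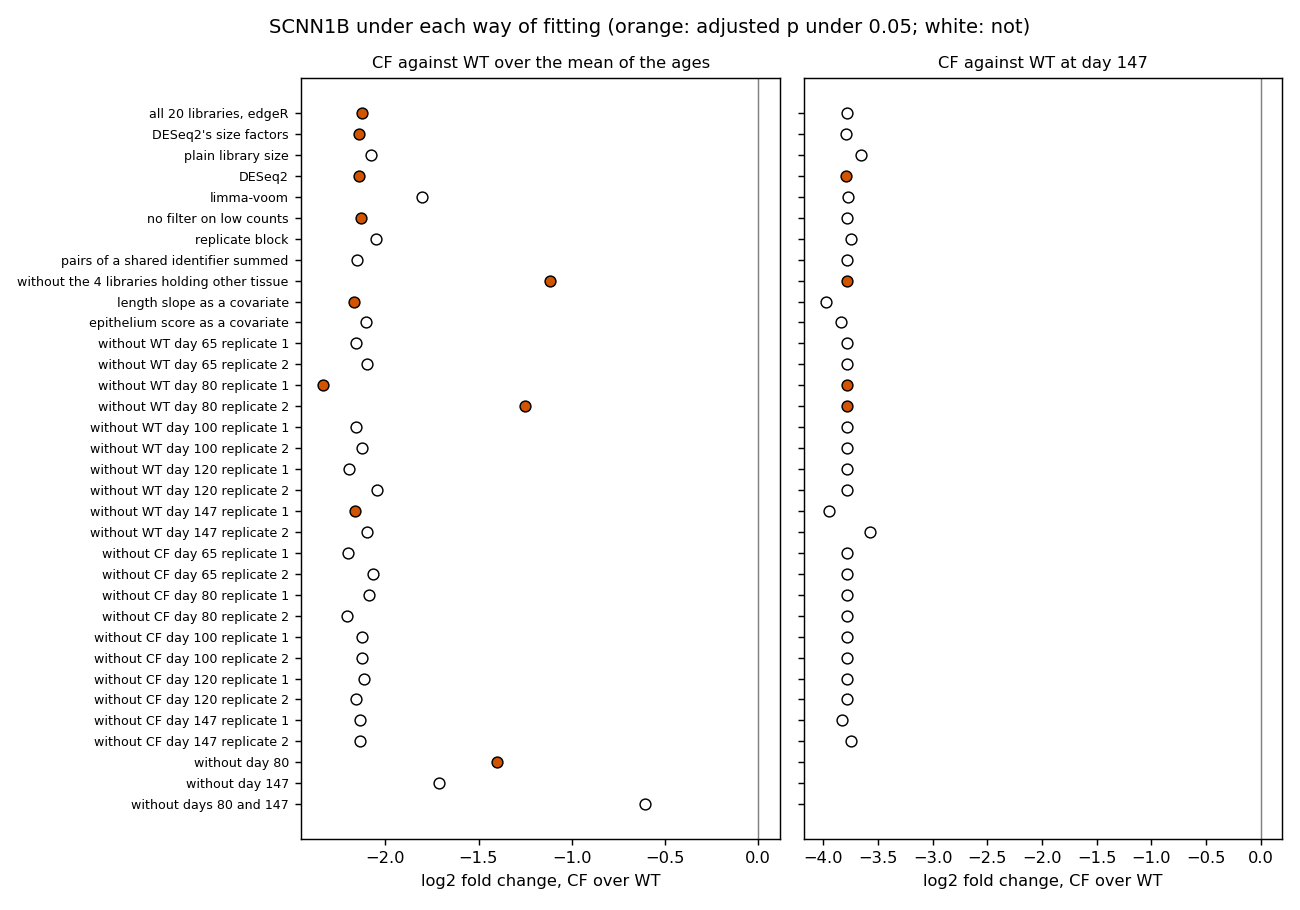
Log2 fold change of SCNN1B, CF over WT, under each way of fitting, averaged over the ages (left) and at day 147 (right). Orange points passed an adjusted p of 0.05 and white points did not; all lie below 0, between -2.33 and -0.61 on the left and between -3.98 and -3.57 on the right.

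At single ages no member passed. Over the 5 ages, from day 65 to birth, 0.00995%, 0.00%, 1.46%, 0.00% and 0.0945% of all genes were called. In the same order 0, 3, 0, 0 and 2 members had an unadjusted p under 0.05, as had 3.39%, 9.57%, 12.3%, 1.39% and 7.92% of all genes. The 3 at day 80 were SCNN1B, SCNN1G and PRSS8, and the 2 at birth were SCNN1B and NEDD4L. DESeq2 called SCNN1B and SCNN1G at day 80 and SCNN1B at day 147, where it called 3.45% and 2.09% of all genes, and limma-voom called 0 at each age. SCNN1B was at -3.78 ± 1.04 log2 at birth (adjusted p = 0.273, edgeR) and at -5.13 ± 1.11 at day 80 (adjusted p = 0.278). The SCNN1B value at day 80 was -0.77 without WT day 80 replicate 2 (adjusted p = 0.467, edgeR), and without the 4 libraries that held other tissue it was -0.52 (adjusted p = 0.936). At birth it passed in 2 of 20 edgeR fits that left out 1 library, among them the fit without WT day 80 replicate 2, a library of another age, at an unmoved -3.78. Without the 4 libraries that held other tissue it was also at -3.78. Whether its genotype difference is equal at all ages was tested directly and the test did not pass (adjusted p = 0.430, edgeR F test), with 0.0697% of all genes called and 7.28% under an unadjusted p of 0.05. No other member passed it, SCNN1B and SCNN1G were under 0.05 before adjustment, and DESeq2 called SCNN1B and 4.08% of all genes. Without WT day 80 replicate 2 SCNN1B passed (adjusted p = 0.0352, edgeR), as did 0.270% of all genes.

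**Figure D3:**
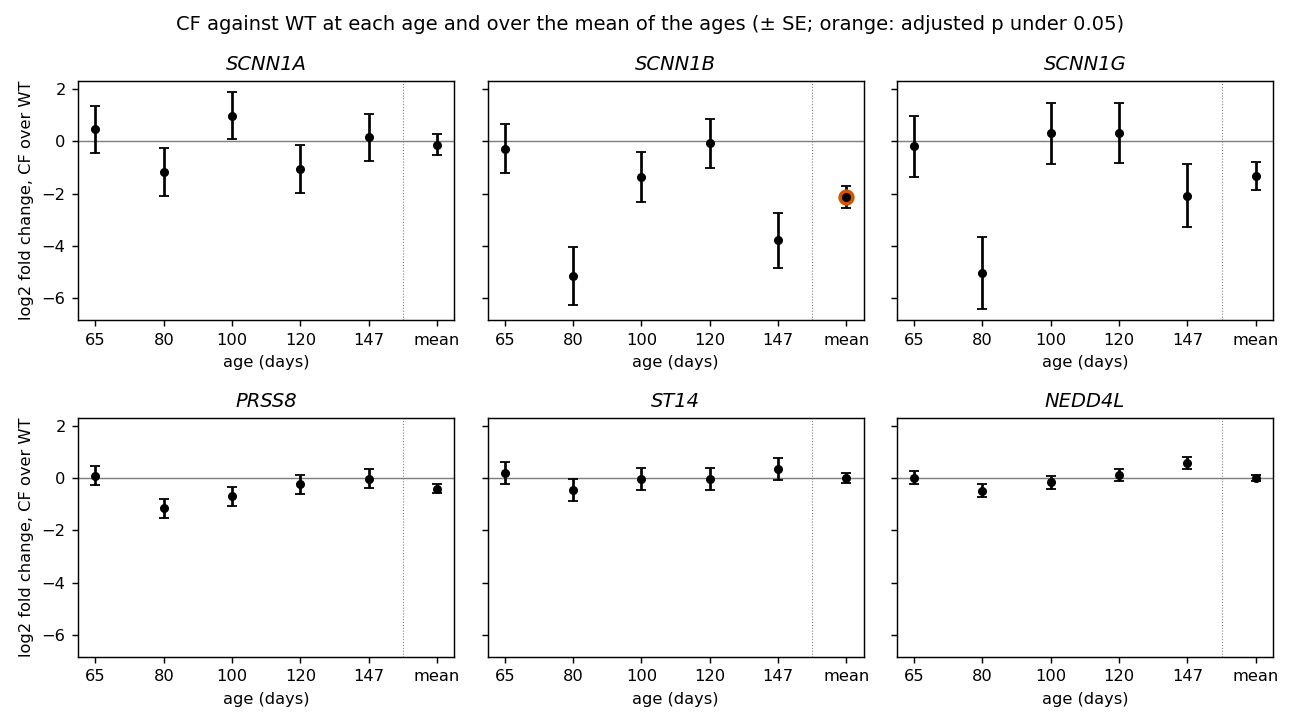
Log2 fold change of each gene, CF over WT, at each age in days and averaged over the ages, with bars for 1 SE. SCNN1B averaged over the ages, at -2.13, is the value marked in orange as passing an adjusted p of 0.05, and PRSS8, ST14 and NEDD4L lie between -1.15 and 0.57.

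The summed secretory cell markers, like SCNN1B, were lower in CF than in WT at birth. Their summed level, over 4 of 5 listed genes that could be tested, was 112 and 105 CPM in the CF libraries of day 147, against 481 and 1162 CPM in the WT ones. BPIFB1 made up most of it, at 88.4 and 98.5 CPM in CF, against 451 and 1141 CPM in WT. The gap between CF and WT in the sum thus rests on BPIFB1, and the other markers were not compared without it. Over all ages the sum ran from 5.69 to 112 CPM in CF and from 2.65 to 1162 CPM in WT. In CF the sum was highest at birth, where SCNN1B was not. The lowest sum, 2.65 CPM, belonged to WT day 80 replicate 2, where SCNN1B was highest, at 237 CPM. The epithelial sum at birth was 3677 and 3700 CPM in CF, against 2142 and 5768 CPM in WT, so its ranges overlapped. Their part in the SCNN1B difference was not tested; with the epithelial score as a covariate SCNN1B was at -2.10 averaged over the ages (adjusted p = 0.0668, edgeR).

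SCNN1A, the alpha subunit, without which the channel conducts little, overlapped between CF and WT at birth, where SCNN1B did not. At day 65 it was 7.79 and 5.90 CPM in CF, against 5.48 and 4.47 CPM in WT, and at day 80 it was 1.46 and 4.64 CPM in CF, against 1.17 and 12.7 CPM in WT. At day 100 it was 11.4 and 8.93 CPM in CF, against 2.70 and 7.60 CPM in WT. The CF libraries were above the WT ones at days 65 and 100, as were 23.8% and 40.5% of all genes. At day 120 SCNN1A was 5.15 and 10.9 CPM in CF, against 23.3 and 10.2 CPM in WT, and at birth it was 28.4 and 17.8 CPM in CF, against 30.0 and 11.5 CPM in WT. The ranges overlapped at days 80, 120 and 147.

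SCNN1A averaged 10.2 ± 7.82 CPM in CF and 10.9 ± 9.23 CPM in WT (SD, n = 10 each), and its log2 fold change averaged over the ages was -0.13 ± 0.40 (adjusted p = 0.952, edgeR). Its highest levels came at birth in both genotypes, with group means in the order CF day 147, WT day 147, WT day 120, CF day 100, CF day 120, WT day 80, CF day 65, WT day 100, WT day 65 and CF day 80. None of the 9 neighbouring pairs was separate. At days 120 and 147 the WT replicates lay far apart, and so did their length slopes, the slope of log2 level on log2 gene length across genes in a library. At day 147 the WT slopes were 0.102 and -0.243, beside SCNN1A at 30.0 and 11.5 CPM, and at day 120 they were 0.0809 and -0.174, beside 23.3 and 10.2 CPM. Slopes lay closer in WT at day 100, at -0.146 and -0.0993, beside SCNN1A at 2.70 and 7.60 CPM. The same held in CF at day 80, at -0.0667 and -0.0798, beside 1.46 and 4.64 CPM. The part of the slopes in these SCNN1A levels was not tested.

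Birth was compared with day 65 over both genotypes, with 4 samples at each age. All 3 subunits were higher at birth on average and no member passed, while 18.6% of all genes were called. SCNN1A was at 1.91 ± 0.66 log2 (adjusted p = 0.0616), SCNN1B at 1.73 ± 0.68 (adjusted p = 0.0947) and SCNN1G at 1.69 ± 0.84 (adjusted p = 0.184), all in the edgeR test. SCNN1A and SCNN1B were the 2 members with an unadjusted p under 0.05, as had 33.0% of all genes. DESeq2 called SCNN1A and SCNN1B and 27.7% of all genes, and limma-voom called SCNN1A and 18.1% of all genes. Without WT day 80 replicate 2 all 3 subunits passed in edgeR, with adjusted p of 0.0167 for SCNN1A, 0.000368 for SCNN1B and 0.0410 for SCNN1G, where 22.0% of all genes were called. With the length slope as a covariate SCNN1A was at 2.94 and passed (adjusted p = 0.00163, edgeR), as did SCNN1G at 2.68 (adjusted p = 0.0404) and 30.2% of all genes.

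Within genotypes, the subunits had different values. In CF, birth against day 65 gave 1.75 ± 0.93 log2 for SCNN1A, -0.02 ± 0.94 for SCNN1B and 0.75 ± 1.17 for SCNN1G, with 0 of 6 members called in edgeR and 5.49% of all genes. In WT it gave 2.06 ± 0.94 for SCNN1A, 3.48 ± 1.02 for SCNN1B and 2.62 ± 1.23 for SCNN1G, with 0 of 6 members called and 8.23% of all genes. At an unadjusted p under 0.05 there were 0 members in CF, beside 18.0% of all genes, and 2 in WT, beside 27.7%. DESeq2 called 0 in CF and SCNN1B in WT, where it called 20.5% of all genes, and limma-voom called 0 in each. For SCNN1B the development in CF minus that in WT was -3.50 ± 1.36 log2 and did not pass (adjusted p = 0.914, edgeR), with 0.00498% of all genes called and 4.79% under an unadjusted p of 0.05. Without WT day 80 replicate 2 it was -3.50 (adjusted p = 0.0616), and in WT alone SCNN1B was then at 3.48 and passed (adjusted p = 0.000263, edgeR), as did 13.0% of all genes.

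Tested for any difference among the 5 ages, no member passed in edgeR, where 17.9% of all genes did. The adjusted p were 0.0879 for SCNN1A, 0.134 for SCNN1B, 0.313 for SCNN1G, 0.164 for PRSS8, 0.332 for ST14 and 0.294 for NEDD4L. SCNN1A and SCNN1B were under 0.05 before adjustment, as were 33.6% of all genes. DESeq2 called both of them and 35.0% of all genes, and limma-voom called 0 members. Each of the 3 subunits passed in 2 of 20 edgeR fits that left out 1 library, among them the fit without WT day 80 replicate 2.

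SCNN1G, the gamma subunit, had its highest levels in the same 3 WT libraries as SCNN1B, WT day 80 replicate 2 and both of birth. It was 5.29 and 2.90 CPM in CF at day 65, against 5.34 and 4.05 CPM in WT. At day 80 it was 0.231 and 2.18 CPM in CF, against 1.49 and 78.0 CPM in WT, where the value of 0.231 CPM rests on 10 counts in the library that held muscle. At day 100 it was 3.47 and 4.37 CPM in CF, against 2.99 and 3.32 CPM in WT. The ranges overlapped at days 65 and 80, and CF was above WT at day 100, as were 40.5% of all genes.

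At day 120 SCNN1G was 5.03 and 7.16 CPM in CF, against 6.08 and 3.71 CPM in WT, and at birth it was 7.07 and 6.70 CPM in CF, against 42.2 and 15.6 CPM in WT. CF lay below WT at birth alone, where 15.6% of all genes did so. Averaged over the ages SCNN1G was at -1.33 ± 0.53 log2 and did not pass (adjusted p = 0.355, edgeR). It was -0.39 without WT day 80 replicate 2 (adjusted p = 0.547, edgeR), and without WT day 80 replicate 1 it was -1.54 and passed (adjusted p = 0.0484, edgeR), as did 1.53% of all genes. It was at -2.07 ± 1.20 at birth (adjusted p = 0.754, edgeR) and at -5.03 ± 1.38 at day 80 (adjusted p = 0.278). The day 80 value was -0.30 without WT day 80 replicate 2 and turned to 0.55 without the 4 libraries that held other tissue, and the one averaged over the ages turned to 0.11 without days 80 and 147.

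The beta and gamma subunit genes lie near each other. In the positions listed with the counts, on a build not given in the sources used here, SCNN1G spans chr24:20899093-20928340 and SCNN1B chr24:21058908-21085025, both on the plus strand, with 130567 bases and 1 annotated gene between them. SCNN1A lies on chr3:207717531-207743132, PRSS8 on chr24:27210054-27214585 on the minus strand, ST14 on chr21:35480979-35501391 and NEDD4L on chr23:57348257-57720795. Exons of SCNN1A overlap LOC106991088 on the other strand, and exons of NEDD4L overlap LOC105604553. Added over all pairs of listed exon pieces, the overlaps came to 136 and 3810 bases. Pieces can repeat the same bases, and NEDD4L lists 447 pieces for 13023 bases, so 3810 can exceed the stretch that overlaps. With the strand setting of the counting not given in the sources used here, reads of these overlaps cannot be told apart. These partners held 864 and 58 counts in all 20 libraries, beside 12899 for SCNN1A and 147131 for NEDD4L.

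Within a library, the ratio of subunits does not depend on depth scaling. Per kilobase, SCNN1B was 0.120 and 0.181 times SCNN1A in CF at birth, against 1.33 and 4.46 times in WT. The ratio at day 100 was 0.287 and 0.366 times in CF, against 2.94 and 1.15 times in WT. The CF ratios lay below the WT ones at days 65, 80, 100 and 147 and overlapped them at day 120. For levels of single genes, CF lay below WT in 23.7%, 10.8%, 30.0% and 15.6% of all genes at days 65, 80, 100 and 147. The share over other ratios of genes was not counted. SCNN1A made up 76.3% and 68.2% of the summed level of the 3 subunits in CF at birth, against 29.4% and 15.4% in WT, and the sum itself was 14.3 and 10.1 CPM per kb in CF, against 39.3 and 28.8 in WT. SCNN1G over SCNN1A at birth was 0.190 and 0.287 in CF, against 1.07 and 1.04 in WT. These ratios are given as a description, with no test. The highest beta to alpha ratio, 13.9, belonged to WT day 80 replicate 2, where the thyroid RNA lay.

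**Figure D4:**
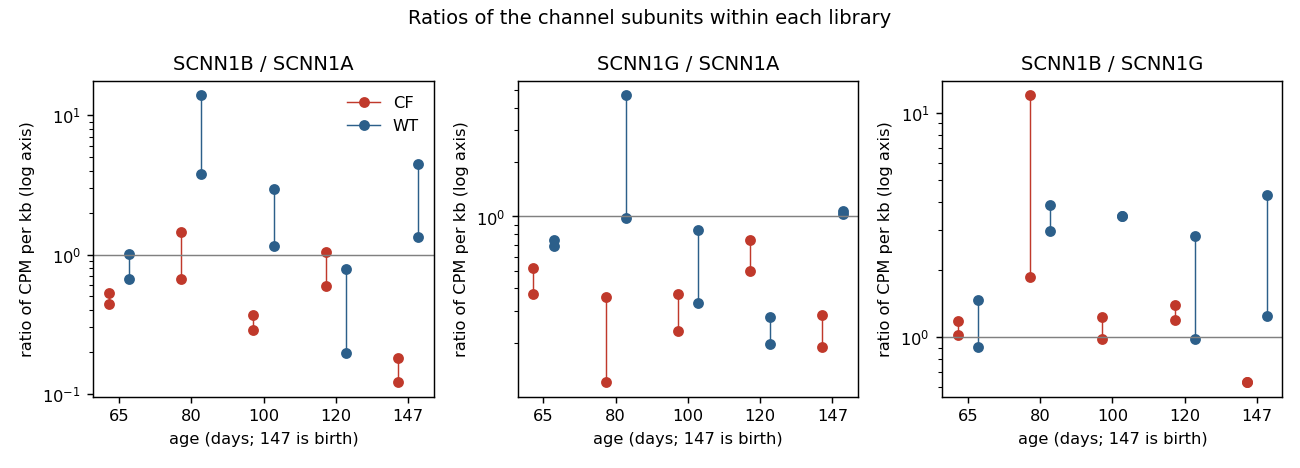
Ratios of the channel subunits in CPM per kb (log axis) against age in days, with a point for each library, a line joining the 2 libraries of a group and CF left of WT. At birth SCNN1B over SCNN1A is 0.120 and 0.181 in CF and 1.33 and 4.46 in WT.

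In WT day 80 replicate 2, SCNN1B and SCNN1G were not the only sodium transport genes at a high level. ATP1B1, which encodes a beta subunit of the sodium pump, stood at 583 CPM in that library, against 71.8 CPM in the other WT library of day 80. The thyroid gene IYD, whose product recovers iodide, stood at 926 CPM there and under 1 CPM in the other 19 libraries. The part of the thyroid and thymus RNA in the levels of SCNN1B and SCNN1G there was not tested.

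PRSS8, the prostasin gene, had less spread over ages than the subunits. It was 103 and 77.1 CPM in CF at day 65, against 98.3 and 70.0 CPM in WT. The CF libraries of day 80 held 27.5 and 69.9 CPM of it, against 108 and 108 CPM in WT. At day 100 it was 96.2 and 85.0 CPM in CF, against 131 and 162 CPM in WT. CF lay below WT at days 80 and 100, as did 10.8% and 30.0% of all genes. It also did so, narrowly, at day 120, at 109 and 101 CPM in CF, against 109 and 138 CPM in WT, as did 7.61% of all genes at that age. At birth it was 118 and 123 CPM in CF, against 95.8 and 150 CPM in WT, and the ranges overlapped.

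PRSS8 averaged 90.9 ± 28.0 CPM in CF and 117 ± 27.8 CPM in WT (SD, n = 10 each). Its log2 fold change averaged over the ages was -0.40 ± 0.16 and did not pass (adjusted p = 0.361, edgeR), and it stayed between -0.59 and -0.24 over 33 alternatives. At day 80 it was at -1.15 ± 0.37 (adjusted p = 0.299, edgeR) and passed without CF day 80 replicate 2, at -1.99 (adjusted p = 0.0158), as did 1.52% of all genes. The library then left for CF at that age is the one that held muscle RNA. Without that muscle-holding library instead, PRSS8 was at -0.61 at day 80 (adjusted p = 1.000, edgeR).

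The level of PRSS8 followed the epithelial markers from library to library, with a Spearman rho of 0.87 over 20 libraries that share depth and tissue mix. Scaled to a fixed level of summed epithelial markers, PRSS8 was at 25.2 to 35.6 in CF, with a median of 32.0, and at 23.4 to 57.7 in WT, with a median of 34.1, in thousandths of that sum. The lowest PRSS8 level of all, 27.5 CPM in CF day 80 replicate 1, was 29.1 on that scale. The part of the epithelial share of a library in its PRSS8 level was not tested. The same rho was 0.58 for ST14, 0.32 for SCNN1B, 0.21 for NEDD4L, 0.06 for SCNN1A and -0.03 for SCNN1G.

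ST14, the matriptase gene, overlapped between CF and WT at every age. It was 151 and 118 CPM in CF at day 65, against 138 and 97.6 CPM in WT. Day 80 gave 33.8 and 119 CPM in CF, against 94.5 and 117 CPM in WT. The day 100 libraries gave 144 and 139 CPM in CF, against 136 and 154 CPM in WT. The genotypes overlapped at each of these ages. They also overlapped at day 120, at 137 and 140 CPM in CF, against 147 and 137 CPM in WT, and at birth, at 186 and 149 CPM in CF, against 109 and 153 CPM in WT. Averaged over the ages its log2 fold change was -0.00 ± 0.19 (adjusted p = 1.000, edgeR). Its mean was 132 ± 39.2 CPM in CF and 128 ± 22.3 CPM in WT (SD, n = 10 each), and PRSS8 over ST14 per kilobase was 1.47 to 2.06 in CF and 1.78 to 2.86 in WT.

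NEDD4L, which marks the channel for removal from the membrane, had the smallest spread of the 6 genes relative to its mean, at 118 ± 22.8 CPM over all libraries (SD, n = 20). It was 127 and 108 CPM in CF at day 65, against 121 and 112 CPM in WT. In the day 80 samples it stood at 70.5 and 96.0 CPM in CF, against 98.7 and 135 CPM in WT. At day 100 it was 139 and 124 CPM in CF, against 143 and 151 CPM in WT. CF lay below WT at days 80 and 100, as did 10.8% and 30.0% of all genes, and overlapped it at day 65. At day 120 NEDD4L was 97.5 and 146 CPM in CF, against 122 and 103 CPM in WT, and at birth it was 156 and 127 CPM in CF, against 101 and 89.3 CPM in WT.

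Birth was the age at which both CF libraries had more NEDD4L than both WT libraries, as had 15.6% of all genes. The log2 fold change there was 0.57 ± 0.25 and did not pass (adjusted p = 0.583, edgeR). It stayed positive in 30 alternatives, between 0.41 and 0.71. Averaged over the ages NEDD4L was at 0.01 ± 0.11 (adjusted p = 1.000, edgeR), with 119 ± 26.1 CPM in CF and 118 ± 20.4 CPM in WT (SD, n = 10 each).

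Between successive ages, over both genotypes, no member passed in edgeR. Before adjustment, 1 member was under 0.05 for day 80 against day 65, 4 for day 100 against day 80 and 0 for day 120 against day 100 and for day 147 against day 120, beside 23.6%, 25.0%, 7.92% and 6.41% of all genes in these 4 comparisons. All genes were called at 0.00%, 8.92%, 0.0995% and 0.134% in these 4 comparisons, in order of age. Day 100 over day 80 gave 0.49 ± 0.17 log2 for NEDD4L (adjusted p = 0.0945), 0.67 ± 0.26 for PRSS8 (adjusted p = 0.123), 0.67 ± 0.30 for ST14 (adjusted p = 0.181) and -1.56 ± 0.68 for SCNN1B (adjusted p = 0.171). DESeq2 called NEDD4L in that comparison, with 18.4% of all genes, and SCNN1B for day 80 over day 65, with 8.84%, and limma-voom called 0 in all 4. The libraries that held thyroid and muscle RNA are both of day 80.

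Among 12500 genes with a symbol and sufficient level, those most alike to each member over the 20 libraries were found by Spearman rho, as a description. SCNN1A was most like MCUR1 (0.92), PTPRJ (0.91) and TMEM8A (0.90), and SCNN1G most like PDXDC1 (0.88), MYBPHL (0.88) and KIAA0040 (0.87). SCNN1B had its closest genes at lower values, TMEM181 (0.83), CCDC67 (0.77) and VDR (0.76), the receptor of vitamin D. PRSS8 was most like LSR (0.94), CAMSAP3 (0.92) and RAB25 (0.90), of which LSR and RAB25 are among the epithelial markers. ST14 was most like RBBP9 (0.84), the transcription factor gene FOXA1 (0.83) and LRRC8E (0.82), and NEDD4L most like SEMA4D (0.88), CC2D1B (0.87) and F11R (0.84), a tight junction protein. Among the members themselves rho was highest for SCNN1A with SCNN1G, at 0.80, and for PRSS8 with ST14 it was 0.60.

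A list of 43 other genes of the channel's pathway, chosen by role, was set beside the members, and 41 of them could be tested. At birth against day 65, over both genotypes, 8 rose and 2 fell of the 41, which is 24.4%, beside 18.6% of all genes. The median log2 fold change of the 41 was 0.00, beside -0.03 for all genes. Of the proteases 3 of 9 passed, of the protease inhibitors 1 of 3, of the ubiquitin and retention genes 2 of 11, of the partners and secreted inhibitor 3 of 4 and of the steroid genes 1 of 4, with 0 of 6 kinases and 0 of 3 genes of sodium exit. Tested for any difference among the 5 ages, 14 of the 41 passed, which is 34.1%, beside 17.9% of all genes. For day 100 against day 80 it was 6 of the 41, 14.6% beside 8.92%.

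SERPINE2, which encodes protease nexin-1, an inhibitor of serine proteases, rose in both genotypes. In CF it was 939 and 822 CPM at birth, against 120 and 105 CPM at day 65. In WT the libraries of birth held 493 and 513 CPM, against 76.3 and 90.8 CPM at day 65. No library of birth overlapped one of day 65. The log2 fold change was 2.97 ± 0.28 in CF (adjusted p = 0.000327) and 2.59 ± 0.28 in WT (adjusted p = 0.000482), in the edgeR test.

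TMPRSS4, a membrane serine protease that can activate ENaC, rose on the mean of both genotypes by 2.73 ± 0.54 log2 (adjusted p = 0.00402, edgeR). Its CF levels were 30.9 and 27.8 CPM at birth, against 6.46 and 4.87 CPM at day 65. Its WT levels were 52.1 and 71.0 CPM at birth, against 9.35 and 5.07 CPM at day 65. USP2, a deubiquitinating enzyme that can keep ENaC at the membrane, rose too (adjusted p = 0.00698, edgeR). Its level was 40.7 and 40.5 CPM in CF at birth, against 20.6 and 15.9 CPM in CF at day 65. In WT it was 45.3 and 78.5 CPM at birth, against 11.3 and 18.8 CPM at day 65. HSD11B2, which shields the mineralocorticoid receptor from cortisol, rose by 1.92 ± 0.53 (adjusted p = 0.0245), at levels of no more than 2.81 CPM in any library. SLC9A3R1, a scaffold that binds CFTR, rose by 1.14 ± 0.29 and the cathepsin gene CTSS by 0.98 ± 0.19. The metalloprotease gene MEP1A rose by 1.91 (adjusted p = 0.0314, edgeR). Syntaxin STX1A, which binds ENaC and CFTR, fell by 1.28 on the log2 scale and the scaffold CNKSR3 fell by 0.91. Within WT alone 7 of the 41 passed, 17.1% beside 8.23% of all genes. They were CTSS, SLC9A3R1, BPIFA1, TMPRSS4, USP2, SERPINE2 and STX1A. Within CF alone SERPINE2 and MEP1A passed, 4.88% of the 41 beside 5.49% of all genes.

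BPIFA1, a secreted protein of the airway that inhibits ENaC, rose on the mean of both genotypes by 7.62 ± 1.02 log2 (adjusted p = 0.000305, edgeR). It was 3.18 and 2.47 CPM in CF at birth, against 155 and 1312 CPM in WT. All other libraries held 0.0783 to 5.15 CPM, so that high levels were limited to the WT libraries of birth. CF against WT at birth gave -8.02 ± 1.42 log2 and did not pass (adjusted p = 0.0547, edgeR). DESeq2 and limma-voom called it, with adjusted p of 8.13e-11 and 0.0219. The summed secretory cell markers given above, mostly BPIFB1, stood in the same order at birth, and their part was not tested.

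**Figure D5:**
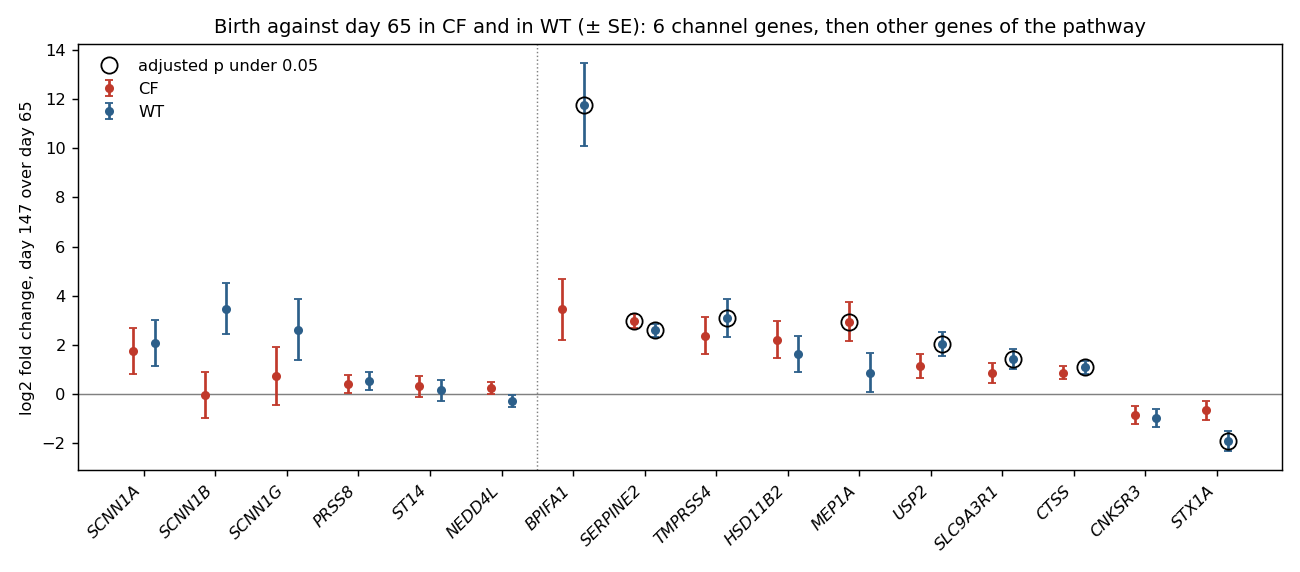
Log2 fold change of day 147 over day 65 in CF (left point) and WT (right point) with bars for 1 SE, for the 6 channel genes and then for the 10 pathway genes called over both genotypes, rings marking an adjusted p under 0.05 within the genotype. SCNN1B is at -0.02 in CF and 3.48 in WT, and SERPINE2 is ringed in both.

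CF against WT averaged over the ages, 1 of the 41 pathway genes passed, 2.44% beside 0.766% of all genes. This was MEP1A, the alpha subunit of the metalloprotease meprin, at 3.13 ± 0.37 log2 (adjusted p = 0.00488, edgeR). It was 1.01 and 0.693 CPM in CF at day 65, against 0.228 and 0.120 CPM in WT. Samples of day 80 had 0.994 and 1.01 CPM in CF, against 0.182 and 0.0522 CPM in WT. At day 100 it was 5.17 and 3.39 CPM in CF, against 0.0739 and 0.228 CPM in WT. At day 120 it was 5.28 and 5.85 CPM in CF, against 0.800 and 4.04 CPM in WT, and at birth 7.33 and 5.80 CPM in CF, against 0.428 and 0.221 CPM in WT. Both CF libraries lay above both WT libraries at days 65, 100 and 147, as did 23.8%, 40.5% and 15.6% of all genes. MEP1B, the other meprin subunit listed, did not pass between CF and WT. At day 100 it was 1.86 and 1.79 CPM in CF, against 19.3 and 16.4 CPM in WT. Its CF libraries lay below the WT ones at days 65, 100 and 147, as did 23.7%, 30.0% and 15.6% of all genes. They overlapped at days 80 and 120.

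MEP1A also passed at day 100 alone, at 4.77 ± 0.88 log2 (adjusted p = 0.0185, edgeR). Averaged over the ages it stayed between 2.70 and 3.43 in 33 alternatives and passed in 31. At each of the other ages 0 of the 41 passed, with 2, 5, 0 and 6 of them under 0.05 before adjustment at days 65, 80, 120 and 147, in that order. At birth TSC22D3, the glucocorticoid-induced GILZ, which can raise ENaC at the membrane, was 37.1 and 57.8 CPM in CF, against 115 and 128 CPM in WT, at -1.36 ± 0.36 log2 (adjusted p = 0.240, edgeR). CFTR itself was 16.5 and 11.7 CPM in CF at day 65, against 37.8 and 21.8 CPM in WT, and at birth it was 37.1 and 26.0 CPM in CF, against 27.6 and 18.8 CPM in WT. Both CF libraries lay below both WT libraries for CFTR at days 65, 80 and 100, as did 23.7%, 10.8% and 30.0% of all genes, and the genotypes overlapped at day 120 and at birth. Averaged over the ages CFTR was at -0.48 ± 0.21 log2 between CF and WT and did not pass (adjusted p = 0.421, edgeR). On the mean of the genotypes it was among the genes that passed for any difference among the 5 ages and for day 100 against day 80.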

How the data were processed

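Total RNA of 20 frozen tracheal samples was sequenced. The submitters' processing notes name STAR 2.6 for alignment and featureCounts 1.6.3 (Subread) for counting, with build, annotation and strand setting not given in the sources used here. What was deposited are raw counts per gene, in a WT and a CF table whose headers also give positions and exon lengths. Of 8432 identifiers without a symbol, 501 were given one from the RefSeq table of ARS-UI_Ramb_v3.0, used for names only. The columns headed term were taken as day 147. In each library 70.7% to 85.3% of values from 1 to 20 were even numbers, and floors and intervals cover counting error only. The chi-square per gene between replicates was 39.3 to 1744, beyond counting noise.

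Tests used edgeR 4.0.16 in R 4.3.3, with filterByExpr over the 10 groups, TMM library sizes and a robust quasi-likelihood fit with 1 coefficient per group of genotype and age. Adjusted p are Benjamini-Hochberg values over 20097 genes, with a threshold of 0.05, in 16 comparisons. The SE of a log2 fold change was derived from its F statistic. CPM use the TMM library sizes. DESeq2 1.42.0, limma-voom (limma 3.58.1), other scalings, covariates and left-out libraries were alternatives, and the edgeR step was tested on simulated data. The members, the pathway list and the marker lists were chosen with earlier results of these data known. Named are the 6 members in every library and the pathway genes past the threshold for birth against day 65 over both genotypes or for CF against WT. Pathway genes past it only in other comparisons are counted, and CFTR is named among them. For each member the 3 genes of highest Spearman rho with a mean log2 CPM of at least 1 are named as well. TSC22D3 and BPIFA1 in CF against WT at birth, MEP1B, CFTR, ATP1B1 and single marker genes of other tissues and of secretory cells were named after their values were seen. GRK2 was matched to no gene and TMPRSS3 was not tested.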

Additional observations from a re-analysis of the deposited data

Results flagged for a closer look

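Each of the 6 genes was looked at in the 10 CF libraries, the 10 WT libraries and the 4 libraries of each age for a sample far from its neighbours, by Dixon's criterion at 95%. That made 42 sets, of which 5 met it, and chance marks about 1 in 20.

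SCNN1B in WT day 80 replicate 2, at 237 CPM, stood apart from the other WT libraries, of which the next was at 68.7 CPM, and from the other libraries of day 80, of which the next was at 5.90 CPM. SCNN1G in the same library, at 78.0 CPM, did so too, with the next WT library at 42.2 CPM and the next library of day 80 at 2.18 CPM. ST14 in CF day 80 replicate 1, at 33.8 CPM, lay below the other CF libraries, of which the next was at 118 CPM. The first of these libraries held thyroid RNA and the second muscle RNA with the lowest epithelial sum, and the part of either was not tested.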

How the results depend on the processing

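Levels under about 1 CPM rest on few counts. Of 1521 values for 50 single genes under the alternatives, 1316 kept their direction and side of the threshold, 71 lost the threshold, 58 gained it and 76 changed sign. The alternatives without an age were added after seeing the data.

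The count of members called over the average of the ages, 1, became 0 with plain library size, limma-voom, the replicate block, pairs of a shared identifier summed, the epithelial score as a covariate, without day 147 and without days 80 and 147. SCNN1B was then at -2.08 (adjusted p = 0.0594), -1.80 (0.375), -2.05 (0.0694), -2.15 (0.247), -2.10 (0.0668), -1.71 (0.240) and -0.61 (0.265), in that order. It passed with DESeq2's size factors, DESeq2 (adjusted p = 1.78e-05), no filter, the length slope (0.0229), without the 4 libraries that held other tissue (-1.11, 0.0460) and without day 80 (-1.40, 0.00519). The cause was not tested.

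Counts of 0 members became, with DESeq2, 2 at day 80, 1 at day 147, 1 for an equal genotype difference, 2 for any age, 2 for birth against day 65, 1 for day 80 against 65, 1 for day 100 against 80 and 1 in WT. Limma-voom gave 1 for birth against day 65. Without the 4 libraries there were 1 at day 147, 2 for any age, 1 for birth against day 65 and 1 in WT. The length slope gave 2 for any age, 2 for birth against day 65, 1 for day 100 against 80, 2 in WT and 1 in CF. With 1 library left out, counts ran 0 to 2 over the average of the ages, 0 to 2 at day 80, 0 to 1 at day 100, 0 to 1 at day 147, 0 to 1 for an equal difference, 0 to 3 for any age, 0 to 3 for birth against day 65, 0 to 1 for day 80 against 65, 0 to 3 for day 100 against 80 and 0 to 2 in WT. Of these, WT day 80 replicate 1, WT day 80 replicate 2 and CF day 80 replicate 2 gave every count above 0 other than over the average of the ages. Counts of all genes called ran from 2 to 829 over the average of the ages (154 as reported) and from 1858 to 6069 for birth against day 65 (3745).

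Values that changed sign were mostly near 0. Over the average of the ages, NEDD4L was at -0.00474 with DESeq2's size factors, -0.00475 with DESeq2, -0.0163 with pairs summed, -0.0311 with the length slope, -0.13 without day 147 and -0.0459 without days 80 and 147. ST14 was at 0.0761 with plain library size, 0.15 without the 4 libraries, 0.10 with the epithelial score, 0.0931 without day 80 and 0.00453 without days 80 and 147. SCNN1A was at 0.00783 with limma-voom, 0.51 without the 4 libraries, 0.11 without day 80 and 0.0916 without days 80 and 147, and SCNN1G at 0.11 without days 80 and 147 as well. At birth against day 65, NEDD4L was at 0.0137 with DESeq2's size factors, 0.0136 with DESeq2, 0.0147 with pairs summed and 0.22 with the length slope, and ST14 at -0.0570 with plain library size and -0.26 with the epithelial score. SCNN1B in CF was at 0.00721 with DESeq2's size factors, 0.00762 with DESeq2, 0.00454 with limma-voom, 0.00512 with pairs summed and 0.16 with the length slope. Without the 4 libraries SCNN1B at day 65 was at 0.16 and SCNN1G at day 80 at 0.55.

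With 1 library left out, values ran from -0.26 to 0.11 for ST14, -0.0581 to 0.0589 for NEDD4L and -0.36 to 0.38 for SCNN1A over the average of the ages, -0.0943 to 0.0867 for NEDD4L at birth against day 65, -0.31 to 0.35 for SCNN1B in CF, -0.43 to 0.36 for SCNN1B at day 120 and -0.66 to 0.00826 at day 65.

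Replicate numbers did not pair CF with WT samples of an age: deviations of samples with the same number correlated at -0.527 to 0.254 over 5 ages, over 0.1 at 1. Over all 45 pairs of groups the correlations ran from -0.588 to 0.733, with 12 over 0.1. Some groups thus shared a pattern by replicate number, and its source was not tested. With the replicate block SCNN1B was at -2.05 over the average of the ages (adjusted p = 0.0694, edgeR), so that 0 members were called, and no other count of members moved.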
